A study of Mus musculus with 8 samples.

Results

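The miR-148 and miR-152 family of small regulatory RNAs was followed through Argonaute-bound RNA of mouse brain. Its members were taken by name: mmu-miR-148a-3p, mmu-miR-148b-3p and mmu-miR-152-3p, called the 3 guides below, and the opposite arms mmu-miR-148a-5p and mmu-miR-148b-5p. Together they made 5 of the 895 mature miRNA names in the table, and 91 of its 26201 read sequences that carried such a name. The level of a member was the sum over its read sequences in CPM, for which each library was scaled to a total of 1000000.

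The 8 libraries came from brains (cortex and hippocampus combined) of mice that all carried the 5XFADtg transgenes, a model of amyloid deposition. Of these, 4 were Rubicon het (Rubicon+/-) and 4 were Rubicon ko (Rubicon-/-). Rubicon restrains autophagy. Per the methods of the study, the mice were females of 6 or 8 months in a mixed C57BL/6J/SJL background, and the labels do not give the age of each mouse. Where the paper describes this comparison, the mice are age-matched at 6 months, the Rubicon-/- mice ill and the Rubicon+/- mice without symptoms, so that genotype and disease state cannot be told apart. No library without the transgenes entered the comparison. RNA was recovered with a GW182 peptide that binds all Argonaute proteins, so each value is the share of a small RNA in the RNA-induced silencing complex (RISC) and not its amount in the tissue. In bulk brain, fewer cells of a type and less RNA per cell cannot be told apart.

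A miRNA guide sits in an Argonaute protein and finds mRNAs mainly through its seed, the bases that follow its first base. Members of the miR-148 and miR-152 family share this seed and can therefore reach overlapping sets of mRNAs. The family is best known for repressing the DNA methyltransferase Dnmt1. Each miRNA hairpin yields 2 arms, of which one is usually kept as the guide while the other is mostly discarded.

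The mature sequences show how close the members are. They are given as in RefSeq (GRCm38.p6), 5′ to 3′, with the seed (bases 2 to 8) in capitals. mmu-miR-152-5p, the arm opposite to mmu-miR-152-3p, is no member and is shown for comparison.
mmu-miR-148a-3p: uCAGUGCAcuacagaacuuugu
mmu-miR-148b-3p: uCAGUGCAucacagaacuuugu
mmu-miR-152-3p: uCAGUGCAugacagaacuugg
mmu-miR-148a-5p: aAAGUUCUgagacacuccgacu
mmu-miR-148b-5p: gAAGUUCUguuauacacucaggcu
mmu-miR-152-5p: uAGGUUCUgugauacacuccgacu
The 3 guides had the same seed, and the 5p arms of miR-148a and miR-148b had another one in common. Counted from 1 at the 5′ end, mmu-miR-148a-3p and mmu-miR-148b-3p were identical at 20 of 22 bases and differed by C9U and U10C. mmu-miR-148a-3p and mmu-miR-152-3p were identical at 18 of 21 compared bases, with C9U, U10G and U20G. mmu-miR-148b-3p and mmu-miR-152-3p were identical at 19 of 21, with C10G and U20G. Every pair of guides thus differed at base 10, and no read named for a guide matched the hairpin of another paralog better than its own. For mmu-miR-152-3p, 2 of its 34 read sequences matched another hairpin equally well.

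The 3 genes lie on different chromosomes. In GRCm38.p6 the guide of miR-148a spans chr6:51269829-51269850 on the minus strand, in a hairpin that overlaps no annotated gene. The guide of miR-148b spans chr15:103285185-103285206 on the plus strand, within an intron of Copz1. The guide of miR-152 spans chr11:96850439-96850459 on the plus strand, within an intron of Copz2. Copz1 and Copz2 encode zeta subunits of the COPI coat, which carries vesicles back from the Golgi.

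Sequencing depth limited the rarer forms. Whole reads could be recovered from the CPM values, and gave 509839 reads in the shallowest library (Rubicon+/- 1) and 19878054 in the deepest (Rubicon-/- 2), with Rubicon-/- 1 also above 5000000. A level of 3 reads corresponded to 5.79 CPM in the former and 0.151 CPM in the latter. The brain guides of a fixed list (such as miR-124-3p and miR-9-5p) summed to 152698 to 253485 CPM per library, and liver miR-122-5p was at 8.82 to 22.3 CPM. Among the other cell type lists, 3 of 5 tested epithelial miRNAs of the miR-200 group were lower in Rubicon-/-, where the list summed to 166 to 1727 CPM against 2184 to 8442 CPM in Rubicon+/-. No miRNA of the leukocyte, endothelium, muscle, liver, brain or red blood cell lists passed the same test. Whether the epithelial difference bears on the family was not tested.

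Among the 3 guides, mmu-miR-148b-3p was the most abundant in every library. In the Rubicon+/- libraries 1 to 4 it was at 562, 392, 491 and 350 CPM, and in the Rubicon-/- libraries 1 to 4 at 420, 499, 328 and 315 CPM. mmu-miR-148a-3p was at 183, 343, 231 and 149 CPM in Rubicon+/- and at 173, 272, 151 and 141 CPM in Rubicon-/-. mmu-miR-152-3p was at 189, 275, 280 and 159 CPM in Rubicon+/- and at 264, 253, 160 and 97.0 CPM in Rubicon-/-. For each guide the ranges of the genotypes overlapped, and Rubicon-/- 4 was the lowest library of all 8 for all 3 guides. These levels placed mmu-miR-148b-3p at rank 160 of the 895 names by mean CPM, mmu-miR-152-3p at rank 220 and mmu-miR-148a-3p at rank 223. All 5 members together held 0.0875% ± 0.0198 of the CPM of named miRNAs (SD, n = 8).

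Since every library holds all members, paralogs were compared within libraries by an exact sign-flip test (two-sided, 8 libraries, smallest possible p = 0.00781), with Benjamini-Hochberg adjustment over 15 comparisons of levels, arms and isoforms. mmu-miR-148b-3p exceeded mmu-miR-148a-3p by 1.07 ± 0.41 on the log2 CPM scale (SD, n = 8), or 2.10-fold, in 8 of 8 libraries (exact p = 0.00781, adjusted 0.0130). It exceeded mmu-miR-152-3p by 1.05 ± 0.41, or 2.07-fold, also in 8 of 8 (exact p = 0.00781, adjusted 0.0130). The difference ran from 0.19 in Rubicon+/- 2, where mmu-miR-148a-3p was high, to 1.62 in Rubicon+/- 1 for the first pair, and from 0.51 to 1.70 for the second. mmu-miR-152-3p and mmu-miR-148a-3p differed by 0.02 ± 0.35 (exact p = 0.875), higher for miR-152 in 5 of 8 libraries, and so were not separated beyond the spread between libraries. On average mmu-miR-148b-3p made 50.9% ± 6.37 of the summed guides, mmu-miR-152-3p 24.7% ± 4.23 and mmu-miR-148a-3p 24.4% ± 4.50. The log2 excess of mmu-miR-148b-3p over mmu-miR-148a-3p was 1.03 within Rubicon+/- and 1.11 within Rubicon-/-.

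**Figure D1:**
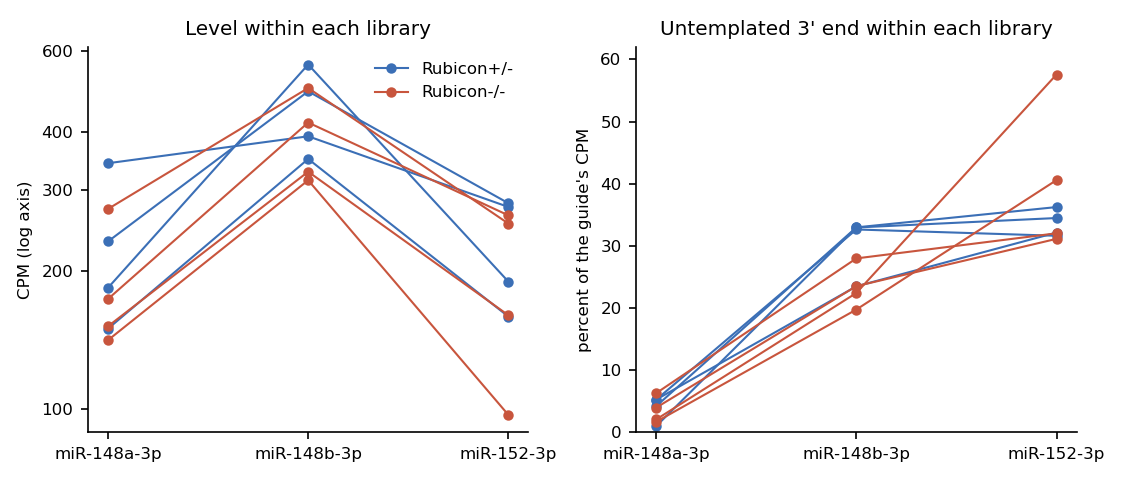
Level in CPM (left, log axis) and share of CPM with an untemplated 3′ end (right, percent) of the 3 guides, with 1 line per library coloured by Rubicon genotype. Every line peaks at miR-148b-3p on the left, while on the right every line lies at or under 6.31% at miR-148a-3p and at or above 19.8% at both other guides.

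The 5p arms were rare in the RISC. mmu-miR-148b-5p was at 7.72, 11.0, 4.27 and 4.51 CPM in Rubicon+/- 1 to 4 and at 3.18, 4.17, 3.44 and 0 CPM in Rubicon-/- 1 to 4, from 159 reads over all libraries. mmu-miR-148a-5p was found in 5 of 8 libraries with 16 reads in all, at 0, 1.38, 0.388 and 2.25 CPM in Rubicon+/- and at 0, 0.151, 1.72 and 0 CPM in Rubicon-/-. mmu-miR-152-5p was found in 4 of 8 libraries with 23 reads in all. The arm with the more abundant guide was also the more abundant passenger: on the log2(CPM + 1) scale mmu-miR-148b-5p exceeded mmu-miR-148a-5p by 1.64 ± 1.04 in 7 of 8 libraries (exact p = 0.0156, adjusted 0.0195), the remaining library having no read of either. The 3p arm exceeded the 5p arm by 6.99 ± 0.85 on this scale for miR-148a and by 6.42 ± 0.92 for miR-148b, in 8 of 8 libraries each (exact p = 0.00781, adjusted 0.0130 for both). Because a 5p count of 0 enters with the added 1 CPM, these arm ratios depend on that constant.

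All 4 Rubicon-/- values of mmu-miR-148b-5p lay below the lowest Rubicon+/- value, which held for 1 of the 5 members and for 2.57% of the 895 names. The 4 Rubicon+/- values rested on 4, 16, 11 and 12 reads, and the Rubicon-/- values on 25, 83, 8 and 0 reads. The library at 0, Rubicon-/- 4, could have held up to 2.94 CPM at its depth (3 reads). The arm did not reach the mean of 10 CPM required for testing. Without that filter its log2(CPM + 1) differed by -1.25 (SE 0.65) in Rubicon-/-, which missed the threshold (limma adjusted p = 0.799, or 0.712 when a mean of 1 CPM was required). The 3p to 5p log2 ratio of miR-148b was 5.90 ± 0.63 in Rubicon+/- and 6.94 ± 0.93 in Rubicon-/- (SD, n = 4 each; exact permutation p = 0.0571, adjusted 0.286 over 15 measures). With 4 libraries against 4 this test cannot give a p under 0.0286. The difference of 1.05 fell to 0.59 without Rubicon-/- 4, the library with no read of the 5p arm.

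**Figure D2:**
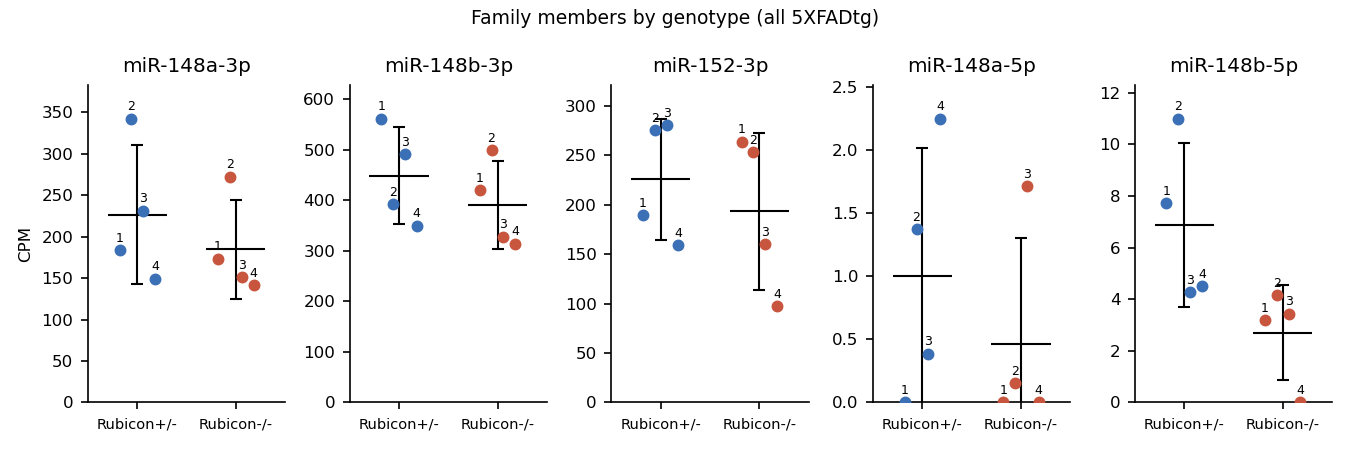
CPM of the 5 members in each library, grouped by Rubicon genotype, with points numbered by replicate, horizontal lines at the mean and bars of ± 1 SD (n = 4), cut at 0. The genotypes overlap for the 3 guides and for miR-148a-5p, while the 4 Rubicon-/- points of miR-148b-5p, 0 to 4.17 CPM, lie below the Rubicon+/- points, 4.27 to 11.0 CPM.

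The effect of Rubicon genotype on the guides was tested with limma on log2(CPM + 1) over the 463 miRNAs averaging 10 CPM or more. Of these, 1.30% passed an adjusted p under 0.05, all lower in Rubicon-/-. Of the members, 3 were tested and 0 passed, and 0 of the 3 had an unadjusted p under 0.05. edgeR and DESeq2 on the recovered reads also called 0. mmu-miR-148a-3p averaged 227 ± 84.2 CPM in Rubicon+/- and 185 ± 60.1 CPM in Rubicon-/- (SD, n = 4 each), a log2 difference of -0.28 (SE 0.33, 95% interval -0.99 to 0.44, limma adjusted p = 0.975). mmu-miR-148b-3p averaged 449 ± 95.9 and 391 ± 86.3 CPM, a difference of -0.20 (SE 0.26, interval -0.76 to 0.36, limma adjusted p = 0.975). mmu-miR-152-3p averaged 226 ± 61.2 and 193 ± 79.5 CPM, a difference of -0.29 (SE 0.36, interval -1.06 to 0.49, limma adjusted p = 0.975).

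The differences of the 3 guides were negative, as was the median of the whole table. That median log2 difference, over 463 miRNAs, was -0.09, and the median log2(CPM + 1) of a library was 0.22 lower in Rubicon-/- than in Rubicon+/-. With each library centred on its own median, the differences became -0.05 for mmu-miR-148a-3p, 0.02 for mmu-miR-148b-3p and -0.07 for mmu-miR-152-3p, so that the direction for mmu-miR-148b-3p turned. Single libraries moved these values. That of mmu-miR-148a-3p ran from -0.48 without Rubicon-/- 2 to -0.055 without Rubicon+/- 2, and that of mmu-miR-148b-3p from -0.33 without Rubicon-/- 2 to -0.085 without Rubicon+/- 1. A single library set the direction for mmu-miR-152-3p, which moved from -0.29 to 0.0050 without Rubicon-/- 4. The share of named miRNA CPM held by the 5 members was 0.0950% ± 0.0172 in Rubicon+/- and 0.0800% ± 0.0215 in Rubicon-/- (exact permutation p = 0.257, adjusted 0.771). This difference of -0.0150 points ran from -0.0236 without Rubicon-/- 2 to -0.0077 without Rubicon-/- 4. Neither did the shares of the 3 guides in their sum pass (exact permutation p of 0.857 to 1, adjusted 1).

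The fold changes of related miRNAs were read beside those of the family. The miR-130 and miR-301 guides have a seed that begins 1 base later in the letters of the family seed. Of 4 such guides tested, 0 passed, with a median log2 difference of -0.22, a lowest of -0.59 for miR-130a-3p (limma adjusted p = 0.754) and a highest of 0.16 for miR-130b-3p (limma adjusted p = 0.975). The miR-29 guides, which like the family are known to target DNA methyltransferases, had 0 of 3 passing and a median of -0.53. Each list was read against the 1.30% of all miRNAs that passed.

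**Figure D3:**
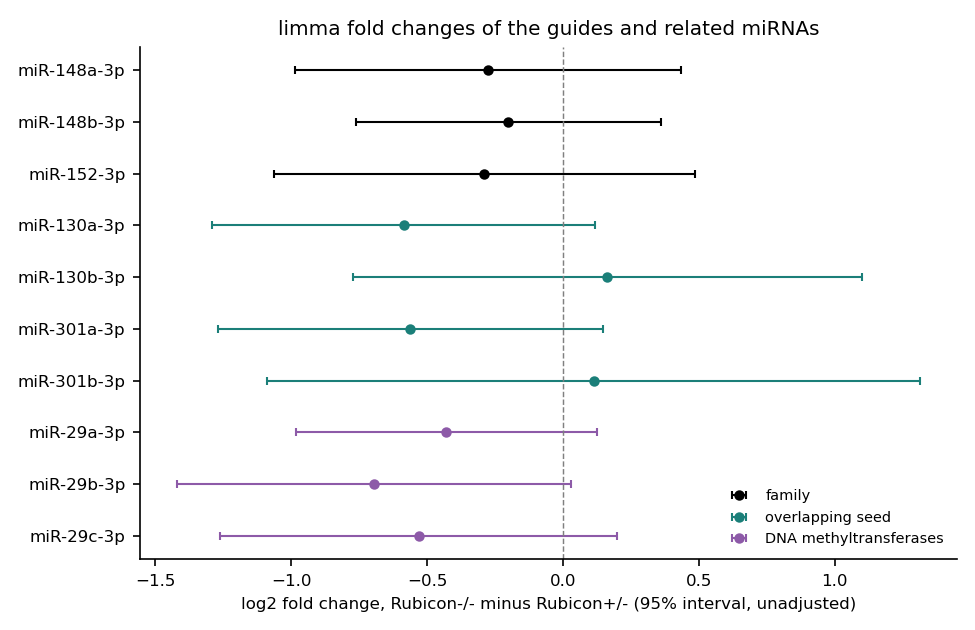
Log2 fold change, Rubicon-/- minus Rubicon+/-, with unadjusted 95% limma intervals, of the 3 guides and of miRNAs from the lists of overlapping seeds and of DNA methyltransferases. The intervals of the 3 guides span 0, as do those of the 7 other miRNAs, and miR-130a-3p is at -0.59.

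Read by read, the guides differed mainly at their 3′ ends. The reads that carry this difference are printed with capitals from the first base that differs from the hairpin. For each guide the annotated sequence, the next most abundant tailed form and their mean over 8 libraries are given.
mmu-miR-148a-3p, annotated: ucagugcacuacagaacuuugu
mmu-miR-148a-3p, 1 A added: ucagugcacuacagaacuuuguA
mmu-miR-148b-3p, annotated: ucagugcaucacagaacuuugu
mmu-miR-148b-3p, 1 U added: ucagugcaucacagaacuuuguU
mmu-miR-148b-3p, 2 U added: ucagugcaucacagaacuuuguUU
mmu-miR-152-3p, annotated: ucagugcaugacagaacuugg
mmu-miR-152-3p, 1 U added: ucagugcaugacagaacuuggU
mmu-miR-152-3p, 1 A added: ucagugcaugacagaacuuggA
The annotated read of mmu-miR-148a-3p averaged 170 CPM and its form with 1 added A 2.38 CPM. For mmu-miR-148b-3p the annotated read averaged 260 CPM and the form with 1 added U 92.3 CPM, and the form with 2 added U 8.65 CPM. For mmu-miR-152-3p the annotated read averaged 119 CPM, the form with an added U 35.3 CPM and the form with an added A 18.5 CPM.

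To show why these ends were read as untemplated, the hairpin is printed from base 9 of each guide, with the 6 bases that follow the annotated 3′ end in capitals.
mmu-miR-148a-3p: cuacagaacuuuguCUCUAG
mmu-miR-148b-3p: ucacagaacuuuguCUCGAA
mmu-miR-152-3p: ugacagaacuuggGCCCGG
The first base after the end was C for both miR-148 guides and G for miR-152, so that a U or an A at that place is in none of the 3 hairpins. mmu-miR-148a-3p and mmu-miR-148b-3p shared the last 12 bases of the mature sequence and the next 3 bases of the hairpin. The end of a read was called untemplated from the first mismatch to the hairpin among its last 3 bases. In the mmu-miR-148b-3p form that ends in UU, the last U equals the hairpin base at its place. Only the U before it differs from the hairpin. An added base that equals the hairpin base cannot be told from a longer templated read, and the shares below are lower limits in that respect.

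Untemplated 3′ ends made 5.26, 4.22, 1.01 and 5.28% of the CPM of mmu-miR-148a-3p in Rubicon+/- 1 to 4 and 6.31, 3.98, 1.71 and 2.08% in Rubicon-/- 1 to 4. For mmu-miR-148b-3p these shares were 32.6, 33.0, 33.0 and 23.5% in Rubicon+/- and 28.0, 23.5, 19.8 and 22.4% in Rubicon-/-. For mmu-miR-152-3p they were 31.6, 36.2, 34.5 and 32.2% in Rubicon+/- and 32.0, 31.1, 40.6 and 57.6% in Rubicon-/-. No library of mmu-miR-148a-3p came near those of either paralog. Wilson intervals (95%) for single libraries, which cover counting error only, spanned 47.7 to 66.8% for the highest share, from 57 of 99 reads, and 22.7 to 24.4% for mmu-miR-148b-3p in the deepest library, from 2340 of 9945 reads.

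The share was 23.2 ± 5.35 percentage points higher for mmu-miR-148b-3p than for mmu-miR-148a-3p (SD, n = 8), in 8 of 8 libraries (exact p = 0.00781, adjusted 0.0130). It was 33.3 ± 10.1 points higher for mmu-miR-152-3p than for mmu-miR-148a-3p, again in 8 of 8 (exact p = 0.00781, adjusted 0.0130). Both differences stood at 26.6 and 29.7 points within Rubicon+/- and at 19.9 and 36.8 points within Rubicon-/-. Between mmu-miR-148b-3p and mmu-miR-152-3p the difference was -10.006 ± 12.1 points, lower for mmu-miR-148b-3p in 7 of 8 libraries (exact p = 0.0156, adjusted 0.0195). It was -3.11 points within Rubicon+/- and -16.9 within Rubicon-/-, and -6.42 points without Rubicon-/- 4. With only the reads seen in all 8 libraries it was -8.13 points and no longer passed (exact test, adjusted p = 0.114, over all alternatives with a test 0.0234 to 0.114).

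The added letters differed as well. This split was chosen after the values were seen and is a description without a test. Ends of U only made 24.3% ± 5.46 of mmu-miR-148b-3p and 22.2% ± 7.20 of mmu-miR-152-3p, against 0.836% ± 0.860 of mmu-miR-148a-3p (SD, n = 8). Ends of A only made 11.96% ± 2.10 of mmu-miR-152-3p, 2.80% ± 1.69 of mmu-miR-148a-3p and 1.97% ± 0.668 of mmu-miR-148b-3p. mmu-miR-148b-3p was thus tailed mostly with U, mmu-miR-152-3p with both letters, and the few tails of mmu-miR-148a-3p were mostly A. The lowest U share of mmu-miR-148b-3p in any library was 17.1%, and the highest of mmu-miR-148a-3p was 2.01%.

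**Figure D4:**
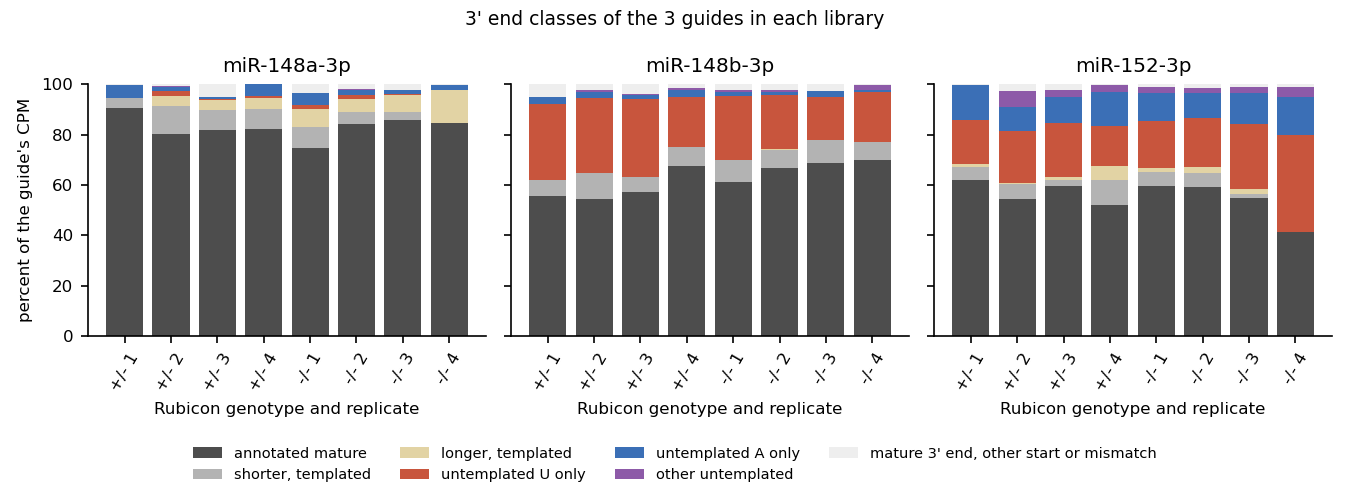
Stacked bars of the percent of each guide's CPM in classes of 3′ end, for each library (Rubicon genotype and replicate). The U class (red) fills 17.1 to 31.0% of each miR-148b-3p bar and 16.1 to 38.4% of each miR-152-3p bar but at most 2.01% of a miR-148a-3p bar, where the annotated read (dark grey) takes 74.6 to 90.5%.

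Templated ends are described here without a test. Reads that ran past the annotated end along the hairpin made 5.58% ± 3.79 of mmu-miR-148a-3p but 0.0726% ± 0.101 of mmu-miR-148b-3p and 1.78% ± 1.67 of mmu-miR-152-3p (SD, n = 8). For mmu-miR-148a-3p these longer reads made 3.07% ± 2.06 in Rubicon+/- (0 to 4.27%) and 8.10% ± 3.53 in Rubicon-/- (5.05 to 13.2%; SD, n = 4 each), ranges that did not overlap. That held for 1 of 27 start, end and length measures of the 3 guides (3.70%), and the longer reads of both other guides overlapped between genotypes. In Rubicon+/- 1 they were at 0 for both miR-148 guides. Reads that stopped short made 5.96% ± 3.58, 7.80% ± 1.37 and 4.56% ± 3.17, respectively. The annotated read itself made 83.1% ± 4.59 of mmu-miR-148a-3p, 62.7% ± 6.37 of mmu-miR-148b-3p and 55.5% ± 6.62 of mmu-miR-152-3p.

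Read length followed from these ends. Mean length was 22.01 nt for mmu-miR-148a-3p, 22.15 nt for mmu-miR-148b-3p and 21.42 nt for mmu-miR-152-3p. mmu-miR-148b-3p exceeded mmu-miR-148a-3p by 0.138 ± 0.110 nt in 7 of 8 libraries (exact p = 0.0156, adjusted 0.0195) and mmu-miR-152-3p by 0.733 ± 0.164 nt in 8 of 8 (exact p = 0.00781, adjusted 0.0130). mmu-miR-152-3p, whose annotated form is 1 base shorter, was 0.595 ± 0.102 nt shorter than mmu-miR-148a-3p in 8 of 8 libraries (exact p = 0.00781, adjusted 0.0130). The excess of mmu-miR-148b-3p over mmu-miR-148a-3p was 0.213 nt within Rubicon+/- and 0.0635 nt within Rubicon-/-, with the exception at -0.0498 nt in Rubicon-/- 4. The 23-nt class made 22.6% ± 5.38 of mmu-miR-148b-3p and 6.49% ± 3.25 of mmu-miR-148a-3p.

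**Figure D5:**
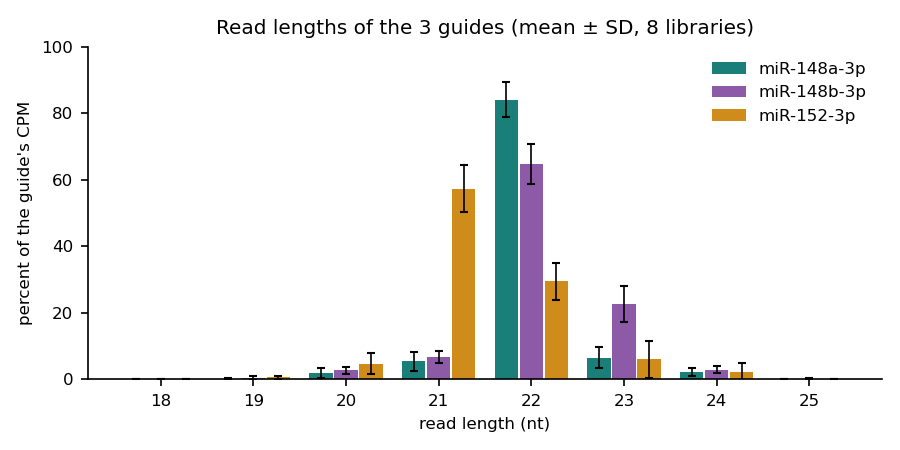
Percent of each guide's CPM by read length in nt (bars, mean of 8 libraries; error bars, ± 1 SD). miR-148a-3p has 84.2% of its CPM at 22 nt, miR-148b-3p has 64.8% there and 22.6% at 23 nt, and miR-152-3p has 57.4% at 21 nt and 29.5% at 22 nt.

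The ends were then compared between genotypes. None of the 9 measures of start, length and untemplated end passed adjustment over the 15 measures tested. With 4 libraries against 4 the exact p cannot go under 0.0286. A measure could therefore pass adjustment only if most of the 15 had a low p too. These tests thus do not show that the ends were alike. For mmu-miR-148b-3p the untemplated share was 30.5% ± 4.69 in Rubicon+/- and 23.4% ± 3.43 in Rubicon-/- (SD, n = 4 each), 7.09 points lower with overlapping ranges (exact permutation p = 0.0857, adjusted 0.321). Its mean length was 22.18 ± 0.0426 nt in Rubicon+/- and 22.12 ± 0.0227 nt in Rubicon-/- (exact permutation p = 0.0571, adjusted 0.286). That of mmu-miR-148a-3p differed in the opposite direction, with 21.97 ± 0.0362 nt in Rubicon+/- and 22.06 ± 0.0861 nt in Rubicon-/- (exact permutation p = 0.0571, adjusted 0.286). The difference of 0.0848 nt was 0.0434 nt without Rubicon-/- 4. For mmu-miR-152-3p the untemplated share was 33.6% ± 2.14 in Rubicon+/- and 40.3% ± 12.3 in Rubicon-/- (exact permutation p = 0.400, adjusted 1). This difference of 6.70 points fell to 0.956 without Rubicon-/- 4, the library with 99 reads of this guide.

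Single reads were tested across the table. Of 3299 that averaged 10 CPM or more, 0.485% passed, and 0 of the 7 member reads among them did, with 0 at an unadjusted p under 0.05. The read of mmu-miR-148b-3p with 1 added U was at 164, 102, 129 and 63.5 CPM in Rubicon+/- and at 88.6, 96.3, 43.4 and 51.9 CPM in Rubicon-/-. The ranges overlapped, and its log2 difference was -0.70 (SE 0.39, limma adjusted p = 0.973), against -0.01 (SE 0.29, limma adjusted p = 0.998) for the annotated read of the same guide. Whether these 2 reads differed from each other in their response to genotype was not tested. The untemplated share above pools all tailed reads of the guide.

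Rarer reads of mmu-miR-148a-3p, below the level required for testing, are also shown. Its next most abundant reads were the form shorter by 1 base and the templated form longer by 1 base, printed with that base in capitals.
mmu-miR-148a-3p, 1 base shorter: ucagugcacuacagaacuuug
mmu-miR-148a-3p, 1 base longer: ucagugcacuacagaacuuuguC
The shorter form was at 5.79, 29.6, 11.6 and 11.3 CPM in Rubicon+/- and at 6.87, 8.89, 2.58 and 0 CPM in Rubicon-/-. The longer form was at 0, 4.81, 6.99 and 3.38 CPM in Rubicon+/- and at 8.65, 9.09, 9.88 and 16.7 CPM in Rubicon-/-. The longer form did not overlap between the genotypes, as was the case, with Rubicon-/- higher, for 1.50% of the 16442 read sequences averaging 1 CPM or more. With that minimum neither form passed (limma on log2(CPM + 1), difference 1.63, adjusted p = 0.854 for the longer, and -1.71, adjusted p = 0.841 for the shorter). The libraries at 0 were the shallowest of each genotype, Rubicon+/- 1 and Rubicon-/- 4.

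Most reads kept the annotated 5′ end, and with it the family seed. Another start was found in 1.63% ± 1.89 of mmu-miR-148a-3p, 3.35% ± 1.71 of mmu-miR-148b-3p and 1.38% ± 1.29 of mmu-miR-152-3p (SD, n = 8), which includes reads with a first base that the hairpin does not encode. The share of mmu-miR-148b-3p was 1.71 ± 1.44 points above that of mmu-miR-148a-3p in 8 of 8 libraries (exact p = 0.00781, adjusted 0.0130). It was 1.97 ± 2.001 points above that of mmu-miR-152-3p in 7 of 8 (exact p = 0.0234, adjusted 0.0270), a call that was lost without any one of Rubicon+/- 1, 3 and 4 and Rubicon-/- 1, 2 and 4 (values 1.51 to 2.07 points; exact test, adjusted p = 0.0541, and adjusted p of 0.0234 to 0.108 over the alternatives with a test). mmu-miR-148a-3p had no other start in Rubicon+/- 1, Rubicon+/- 4 and Rubicon-/- 4 (95, 398 and 144 reads of the guide). mmu-miR-152-3p had none in Rubicon+/- 1 and Rubicon-/- 4. The differences could not be negative in those libraries. Only sequences with at least 8 reads in all were in the table, a cut that can remove more rare starts from a less abundant guide. Its part in these differences was not tested. Reads that begin 1 base late are of interest because they carry the seed of another family, as printed beside miR-130a-3p with bases 2 to 8 in capitals.
mmu-miR-148a-3p, 1 base late: cAGUGCACuacagaacuuugu
mmu-miR-148b-3p, 1 base late: cAGUGCAUcacagaacuuugu
mmu-miR-152-3p, 1 base late: cAGUGCAUgacagaacuugg
mmu-miR-130a-3p, annotated: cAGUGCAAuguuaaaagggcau
These reads were identical to miR-130a-3p in bases 2 to 7 (AGUGCA) and not in base 8. Of mmu-miR-148b-3p, 2.59% carried this 6mer, against 1.14% of mmu-miR-148a-3p and 0.378% of mmu-miR-152-3p. The family supplied 1.25% of the 1118 CPM that carried AGUGCA, most of which was miR-301a-3p (45.6%) and miR-130a-3p (45.2%).

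The study grades small RNAs by the 6mer seed in bases 2 to 7. Each seed has a viability score, the mean percent viability of 3 mouse cell lines given a duplex with that seed, where a low score stands for a toxic seed. The family seed CAGUGC scored 69.7, and 22.1% of all CPM in the table lay in seeds with a higher score. Of the 824 CPM that carried CAGUGC, 98.6% came from the 3 guides, with mmu-miR-148b-3p at 49.0%, mmu-miR-152-3p at 25.03% and mmu-miR-148a-3p at 24.5%. The 5p arms carried AAGUUC, which scored 58.8, and supplied 90.5% of its 6.10 CPM. A late start by 1 base therefore moved a guide from a score of 69.7 to 88.4.

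Summed by seed, 0.303% of 990 seeds passed the test between genotypes, and 0 of the 5 tested seeds that family reads carry were among them, with 0 at an unadjusted p under 0.05. Only CAGUGC came mostly from the family (98.6%). The family supplied 1.25% of AGUGCA and 0.987% of GUGCAC. mmu-miR-152-3p held 0.449 of the 312 CPM of UUCAGU. Of the 53.2 CPM of GUCAGU, mmu-miR-148b-3p held 0.388 and mmu-miR-152-3p 0.430. The tests of these other seeds thus concern mostly other RNAs. CAGUGC differed by -0.24 on the log2(CPM + 1) scale (SE 0.27, 95% interval -0.82 to 0.33, limma adjusted p = 0.982), from -0.39 without Rubicon-/- 2 to -0.10 without Rubicon-/- 4. AGUGCA, mostly from other miRNAs, differed by -0.51 (SE 0.30, limma adjusted p = 0.926).

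The variation of the guides over the 8 libraries is described by correlations. The Pearson correlation of log2(CPM + 1) was 0.49 between mmu-miR-148a-3p and mmu-miR-148b-3p, 0.77 between mmu-miR-148a-3p and mmu-miR-152-3p, and 0.65 between mmu-miR-148b-3p and mmu-miR-152-3p. Of 277 other miRNAs averaging 100 CPM or more, those most like mmu-miR-148a-3p were miR-872-5p (r = 0.92), miR-1a-3p (0.91) and miR-410-3p (0.91). Those most like mmu-miR-148b-3p were miR-126a-5p (0.91), miR-146b-5p (0.89) and miR-15a-5p (0.88), and those most like mmu-miR-152-3p were miR-16-5p (0.93), miR-195a-5p (0.92) and miR-872-5p (0.87). The points are 8 libraries that share depth and composition across all miRNAs, so these values are descriptions.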

How the data were processed

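Small RNAs of the Ago pull-down were sequenced in 8 libraries of mouse brain (4 Rubicon+/- and 4 Rubicon-/-, all 5XFADtg, grouped by sample titles). The authors trimmed reads (Trim Galore, per the labels), removed rare reads, annotated sequences by BLAST with their SPOROS pipeline, and deposited a table of 47204 read sequences in CPM per library, scaled to 1000000 reads. The deposited table also gives the authors' seed viability score. The aligner's mismatch limit was not given in the sources used here. Every sequence had at least 8 reads in all.

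CPM was summed per miRNA, read or seed. The values were whole multiples of 1 read (tolerance 0.1 reads) for 100% of values, and recovered reads entered edgeR 4.0.16 and DESeq2 1.42.0 as alternatives. limma 3.58.1 (R 4.3.3) was fitted to log2(CPM + 1) of features averaging 10 CPM or more, with Benjamini-Hochberg adjustment and a threshold of 0.05. Fold changes on this scale understate those of low features. Per-library measures were compared by exact permutation over all 70 splits and paralogs by exact sign-flip tests (Python 3.11.15, scipy 1.17.1). Reads were compared with RefSeq hairpins (GRCm38.p6) to call starts and untemplated ends, and a mature sequence was found for all 5 members. Each library was taken as its own mouse, which the sample titles, numbered by replicate, do not state. The paper's methods name 4 mice per genotype, while its figure legend for this comparison averages 3 samples and its results name 3 Rubicon+/- mice. Named were the 5 members, the 3 most abundant reads of each, the 3 most correlated miRNAs of each guide, and fixed lists, of which 1 is not reported here. The members and lists were chosen with earlier results of these data known. Tests were checked on simulated data. Alternatives covered pseudocount, filter, centring, tool, replicate block, left-out libraries and reads seen in all libraries. Intervals and floors cover counting error only, and no molecular identifiers are described.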

Additional observations from a re-analysis of the deposited data

Results flagged for a closer look

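Of 40 groups of 4 libraries (5 members and 15 measures in 2 genotypes), 3 held a library that lay far from the other members of its group by Dixon's criterion, where about 2 are expected by chance. The share of mmu-miR-148b-3p with an untemplated 3′ end was 23.5% in Rubicon+/- 4 and 32.6% in the next library of that genotype. The share of mmu-miR-148a-3p with another start was 5.03% in Rubicon+/- 3 and at most 0.402% in the other Rubicon+/- libraries. mmu-miR-148a-5p was at 1.72 CPM (4 reads) in Rubicon-/- 3 and at most 0.151 CPM in the other Rubicon-/- libraries.

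Reads without a mature name also matched the 3 hairpins, in 25 sequences that summed to between 0.980 CPM (Rubicon-/- 4) and 13.8 CPM (Rubicon+/- 2) per library. They were outside the named members, and no single one averaged more than 1.17 CPM.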

How the results depend on the processing

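The test between genotypes called 0 members under 19 alternatives. It called 0 member reads, and 0 of the tested seeds that family reads carry, under 13 (pseudocount, minimum, replicate block and left-out libraries). It called 0 of the 15 per-library measures under 11. With any library left out, or with the replicate block, the exact p of these measures cannot go under 0.05. The 0 was thus fixed in advance there. With all 8 libraries it cannot go under 0.0286, and a measure could pass adjustment only if most of those tested had a low p too. The paralogs differed in 13 of 15 comparisons, in 7 of the 9 that could be made with reads seen in all 8 libraries, and in 12 to 13 when a library was left out. Without the 2 libraries of over 5000000 reads 0 comparisons passed. With 6 libraries the exact sign-flip p cannot go under 0.0312, which came to 0.0521 after adjustment. The differences were then 1.07 (miR-148b-3p over miR-148a-3p) and 1.13 (over miR-152-3p) on the log2 scale, and 24.1 (miR-148b-3p minus miR-148a-3p), 35.5 (miR-152-3p minus miR-148a-3p) and -11.4 points (miR-148b-3p minus miR-152-3p) for untemplated ends. With reads seen in all 8 libraries the last was -8.13 points. Directions turned only where no difference was called. The median-centred log2 difference of miR-148b-3p was 0.021. The log2 excess of miR-152-3p over miR-148a-3p became -0.015 with reads seen in all 8 libraries and -0.061 without the deep ones. With reads seen in all 8 libraries, the genotype difference turned for the share of miR-152-3p among guides (0.285 points) and the mean length of miR-148a-3p (-0.0032 nt). Without the deep libraries it turned for the arm ratio of miR-148a (-0.43) and for other starts of miR-148a-3p (-0.222 points), and the difference in other starts of miR-152-3p and miR-148a-3p became 0.143 points. Leaving out single libraries gave genotype differences in log2 of -0.47 to 0.0050 for miR-152-3p, -0.14 to 0.081 for the annotated read of miR-148b-3p, -0.62 to 0.028 for that of miR-152-3p, -0.15 to 0.23 for its form with U, -0.15 to 0.058 for its form with A, and -0.29 to 0.59 for the arm ratio of miR-148a. Shares of the guides moved from -2.57 to 2.20 points (miR-148a-3p), -2.59 to 4.51 (miR-148b-3p) and -2.48 to 1.93 (miR-152-3p). Other starts moved from -1.16 to 0.365 points (miR-148b-3p) and -0.514 to 0.561 (miR-152-3p), the length of miR-152-3p from -0.0283 to 0.127 nt, and untemplated ends of miR-148a-3p from -1.40 to 0.184 points. Between paralogs, the level of miR-152-3p over miR-148a-3p moved from -0.068 to 0.096 and their other starts from -0.625 to 0.0934 points. The cause of these shifts was not tested. With recovered reads the log2 differences of miR-148a-3p, miR-148b-3p and miR-152-3p were -0.17, -0.07 and -0.10 (edgeR) and -0.16, -0.06 and -0.09 (DESeq2), and without the deep libraries -0.56, -0.46 and -0.81. Adding reads of the hairpins without a mature name, chosen after seeing the data, gave -0.29, -0.20 and -0.29. Same-numbered replicates 1 to 4 deviated with r = 0.04, 0.29, -0.18 and 0.25, so that 2 of 4 pairs were over 0.1 and the numbers were not taken to pair the samples. The replicate block called 10 miRNAs in place of 6 over the table and 0 members (limma adjusted p of 0.942 to 0.981). For per-library measures the paired sign-flip test with the replicate block cannot go under an exact p of 0.125 and gave the same difference of -0.0150 points for the share of the 5 members (adjusted 0.469). Among reads seen in all 8 libraries miR-148a-3p and miR-152-3p had no other start and the 5p arms no read, so comparisons of paralogs by these were not made there. Depth limits the 5p arms, with 16 reads of miR-148a-5p in all.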
